A study of Homo sapiens with 6 samples.

Results

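Glycolysis is the chain of cytosolic reactions that breaks glucose down to pyruvate. Its upper steps rearrange and split the sugar, its lower steps return ATP and NADH, and lactate dehydrogenase then turns pyruvate into lactate and restores NAD+. The enzymes are made in large amounts by most cells, and the mRNA of one of them, GAPDH, is a common reference in RT-qPCR. In the study behind these data GAPDH served as the RNA that should not bind the long noncoding RNA CyCoNP. The 10 genes described here are GPI, ALDOA, TPI1, GAPDH, PGK1, PGAM1, ENO1, PKM, LDHA and LDHB. They were chosen by name as glycolytic and lactate enzymes, with no measured value in the rule but with earlier results of these data known. The hexokinases and phosphofructokinases are not among them and come further below. The chosen genes are 10 of the 60676 gene entries in the count table, and all 10 were among the 12565 genes tested.

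SK-N-BE cells, grown from a human neuroblastoma, were taken at day 1.5 of differentiation in medium with reduced serum and retinoic acid, and their RNA was sequenced. All 6 libraries share this state of the cells. Input is RNA from the cleared cell extract (2 libraries), CyCoNP PD is RNA recovered from that kind of extract with biotinylated probes antisense to CyCoNP (2 libraries), and LacZ PD is RNA recovered with probes to LacZ, a bacterial gene (2 libraries). LacZ PD thus gives the background of the procedure. The labels number the libraries 1 and 2, and the study calls the pull-downs biological duplicates. Neither says whether the duplicates came from separate cultures, so the p-values measure the spread between these libraries. Everything rests on 1 cell line, and a pull-down shows recovery from an extract, not contact inside a cell. Total counts were 717905 and 791970 for input, 1512148 and 514882 for CyCoNP PD, and 18870 and 140115 for LacZ PD. A gene therefore needed 159 CPM (counts scaled to a library total of 1e6) in LacZ PD 1, but only 1.98 CPM in CyCoNP PD 1, to reach 3 counts. Of 14 adrenergic neuroblastoma markers, 12 to 14 had counts in each library, MYCN among them, while 6 blood markers, PTPRC and HBB at 0 among them, summed to at most 2 counts. Of 9 mesenchymal markers, 3 to 9 had counts, and their sum was 473 to 612 CPM in the 3 libraries numbered 1 against 93.4 to 164 CPM in the 3 numbered 2. In LacZ PD 1 the sum rests on 11 counts of 4 genes. The markers did not all move alike. THY1 and PDGFRB were higher in the library numbered 2 of both pull-downs, THY1 at 122 against 106 CPM in CyCoNP PD and 150 against 106 CPM in LacZ PD. Intervals on counts and shares hold the error of counting alone, because several PCR reads may stem from 1 molecule and no identifier tells them apart.

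The probes are shown because complementarity to a probe could pull an mRNA down without CyCoNP. The study lists 22 probes against CyCoNP and 5 against LacZ. Each sequence below is the CyCoNP probe with the longest exact complement in the reference transcript of that enzyme, with the complementary bases in capitals.
GAPDH, probe 12: cccAACATGGGGGagaaaaa
ALDOA, probe 10: aTCAGGCTCCAggatgcaac
ENO1, probe 10: atcaggCTCCAGGATGcaac
TPI1, probe 6: gACAGGCTCATctagatttc
PGK1, probe 5: ctgCCAAAAGTTTgtccttc
The stretch lies at bases 459 to 468 of the GAPDH transcript, within the coding sequence, as do those in ALDOA, ENO1 and TPI1, and at bases 3027 to 3036 of PGK1, in its 3′ UTR. Over all annotated transcripts, the longest stretch was 10 bases for 8 of the enzymes and 11 bases for GPI and LDHA. Of the 12528 tested genes with transcripts, 70.6% held a stretch of at least 10 bases and 32.9% one of at least 11. The enzymes were thus like most genes in this respect, whereas CyCoNP, annotated as LINC02381, matched the full 20 bases. Against the LacZ probes the longest stretch was 10 bases, in ENO1 and TPI1, and 12.3% of genes held one as long. A match of letters is a description and says nothing about binding.

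GAPDH, glyceraldehyde-3-phosphate dehydrogenase, makes the NADH of the pathway. Its gene lies at chr12:6534512-6538374 on the plus strand (GRCh38). It took 1453 and 2604 counts for input, 7676 and 2150 for CyCoNP PD, and 138 and 876 for LacZ PD. As CPM, these were 2024 and 3288 CPM for input, 5076 and 4176 CPM for CyCoNP PD, and 7313 and 6252 CPM for LacZ PD. On that scale the 3 groups did not overlap, with input lowest and the control pull-down highest. By rank of counts within a library, GAPDH stood at 58 and 42 for input, 10 and 14 for CyCoNP PD, and 4 and 9 for LacZ PD. The libraries came from bulk extracts of the same cell line, so these levels describe what each library holds and not the GAPDH mRNA of single cells.

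Scaling bears on this order. TMM normalization, which assumes that most genes are level, gave LacZ PD 1 a factor of 1.70 against 0.832 to 1.01 elsewhere. Genes were still not level in LacZ PD against input, where 32.4% of tested genes had a log2 fold change above 0. After TMM, GAPDH was at 3044 ± 1283 CPM in input, 5470 ± 961 CPM in CyCoNP PD and 5310 ± 1342 CPM in LacZ PD (SD, n = 2 each). The fitted log2 fold change was 0.85 (SE 0.70, 95% interval -0.65 to 2.34) for CyCoNP PD against input and 0.80 (SE 0.70, -0.70 to 2.31) for LacZ PD against input. Neither passed the quasi-likelihood F test of edgeR after adjustment over all tested genes by Benjamini and Hochberg (adjusted p = 0.9996 and 0.777). Between the pull-downs GAPDH differed by 0.04 on the log2 scale (SE 0.70, -1.45 to 1.53, adjusted p = 0.9997). With library size alone this value was -0.55, so its direction depends on the scaling. The interval shows how large a difference could have been missed at this depth, and the test does not show that the pull-downs recovered GAPDH alike.

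The study's RT-qPCR primers for GAPDH are shown because GAPDH was also read by that assay. The base of the forward primer that differs from the reference transcript is in capitals.
GAPDH forward: caccatcttccaggagTgag
GAPDH reverse: ccttctccatggtggtgaagac
The reverse primer lies exactly at bases 377 to 398 of the reference transcript. The forward primer, as listed, aligned to bases 298 to 317 with 1 difference, T17C, counted from the 5′ end of the primer with the primer's base first. Its first 15 bases fill the end of exon 4 and its last 5 lie past that exon. It matched exactly in 4 of 11 annotated GAPDH transcripts, 3 of them of the retained-intron type and 1 protein-coding, with products of 128 to 230 bases. It also matched 2 of 65 GAPDH pseudogenes, and the reverse primer matched 3, but none of them held both. Whether the listed letter is that of the oligonucleotide used was not tested, and it may be a typing error, so these matches do not show which GAPDH RNA the assay read. The RT-qPCR values themselves are not analysed here.

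**Figure D1:**
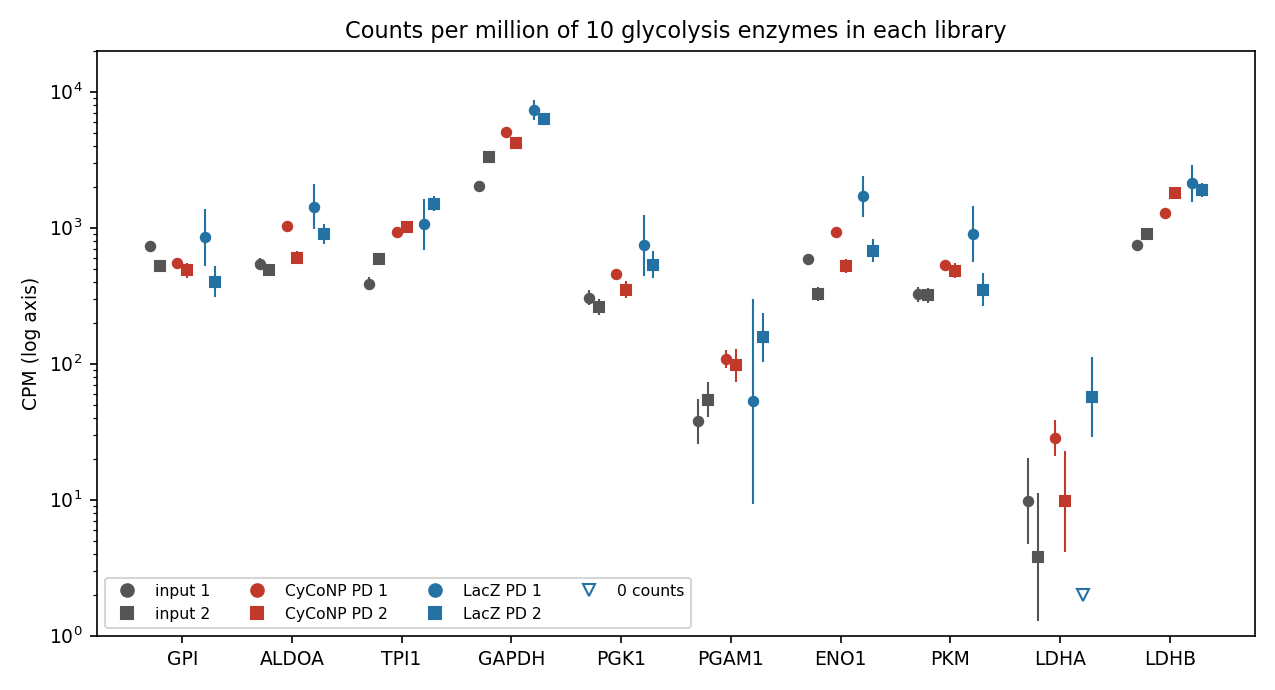
CPM (log axis) of the 10 enzymes in the 6 libraries, with 95% Wilson intervals of counting error; circles are libraries numbered 1 and squares those numbered 2. GAPDH lies above every other enzyme in each library, from 2024 to 7313 CPM, and LDHA lies lowest, with 0 counts in LacZ PD 1 (open triangle, placed below the scale of the data).

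The other lower enzymes turn the product of GAPDH into pyruvate. PGK1, phosphoglycerate kinase, which makes the first ATP of the lower steps, stood at 306 and 260 CPM for input, 455 and 350 CPM for CyCoNP PD, and 742 and 535 CPM for LacZ PD. PGAM1, phosphoglycerate mutase, stood at 37.6 and 54.3 CPM, 109 and 97.1 CPM, and 53.0 and 157 CPM in the same order. PGK1 thus had the order of GAPDH with no overlap between groups, while the LacZ PD libraries of PGAM1, with 1 and 22 counts, reached from the range of input to above CyCoNP PD. ENO1, enolase, stood at 586 and 325 CPM for input, 923 and 521 CPM for CyCoNP PD, and 1696 and 678 CPM for LacZ PD. PKM, pyruvate kinase, stood at 323 and 318 CPM, 532 and 482 CPM, and 901 and 350 CPM. For ENO1 the libraries numbered 1 were the higher in every group, and CyCoNP PD overlapped both other groups. PKM was above input in every pull-down library, and LacZ PD 1 and 2 lay on either side of CyCoNP PD.

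The fitted log2 fold changes against input were 0.58 (SE 0.59) for PGK1, 1.21 (SE 0.67) for PGAM1, 0.77 (SE 0.64) for ENO1 and 0.73 (SE 0.59) for PKM in CyCoNP PD. In LacZ PD they were 0.63 (SE 0.61), 1.07 (SE 0.73), 0.73 (SE 0.65) and 0.27 (SE 0.62). None passed the test.

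The upper enzymes split the sugar. GPI, glucose-6-phosphate isomerase, stood at 731 and 523 CPM for input, 549 and 486 CPM for CyCoNP PD, and 848 and 400 CPM for LacZ PD. It was the 1 enzyme whose fitted value was below 0 in both pull-downs, at -0.20 (SE 0.59) in CyCoNP PD and -0.64 (SE 0.61) in LacZ PD, with overlapping groups and no call. ALDOA, aldolase A, stood at 540 and 485 CPM for input, 1034 and 600 CPM for CyCoNP PD, and 1431 and 899 CPM for LacZ PD. TPI1, triose-phosphate isomerase, stood at 389 and 587 CPM, 926 and 1012 CPM, and 1060 and 1506 CPM. Both had higher CPM in each pull-down library than in either input library. Fitted, ALDOA differed from input by 0.75 (SE 0.62) in CyCoNP PD and 0.61 (SE 0.63) in LacZ PD, and TPI1 by 1.03 (SE 0.66) and 0.96 (SE 0.66). On the same strand as ALDOA lies a further entry, ENSG00000285043, that spans the gene. It took 7 and 63 counts for input, 235 and 69 for CyCoNP PD, and 7 and 41 for LacZ PD, so reads could be split between the entries and the ALDOA counts are uncertain to that extent.

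The lactate dehydrogenases stood far apart. LDHB, the subunit that predominates in heart, stood at 744 and 896 CPM for input, 1291 and 1812 CPM for CyCoNP PD, and 2120 and 1906 CPM for LacZ PD, with no overlap between groups. LDHA, the subunit that predominates in muscle, took 7 and 3 counts for input, 43 and 5 for CyCoNP PD, and 0 and 8 for LacZ PD. The mean input level of LDHB was 820 CPM and that of LDHA 6.77 CPM, or 629 and 3.02 CPM per kilobase of reference transcript. Pseudogenes of LDHA took 61.1% of the counts of LDHA and its pseudogenes in input 1 and 0 counts in input 2, and whether reads of LDHA were lost or assigned to other entries was not tested, so its low level is uncertain. The 0 counts of LDHA in LacZ PD 1 allow up to 159 CPM (3 counts), well above its 57.1 CPM in LacZ PD 2, so its absence there was not detectable as a difference. LDHB differed from input by 0.97 (SE 0.64) in CyCoNP PD and 0.78 (SE 0.64) in LacZ PD, on the log2 scale. LDHA gave the widest intervals, at 1.65 (-0.32 to 3.61) and 2.39 (0.09 to 4.69), and its unadjusted p in LacZ PD was 0.0426 by edgeR, against an adjusted p of 0.684. Without LacZ PD 2, the LDHA value in LacZ PD turned to -5.23, since 0 counts remained, and this fitted value depends on the prior count and is no bound.

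Per kilobase of reference transcript, the mean input levels ran from GAPDH (2067) through LDHB (629), TPI1 (361), ALDOA (313), ENO1 (256), GPI (152), PKM (139), PGK1 (58.9) and PGAM1 (25.5) to LDHA (3.02), all in CPM per kilobase. GPI stood at place 3 by CPM and at place 6 per kilobase, as its transcript is 4125 bases long against 1285 for GAPDH. Whether counts of these nanopore cDNA reads grow with transcript length was not tested. Division by length may therefore set long transcripts such as that of GPI too low. The input libraries of TPI1 and ALDOA, of ALDOA and ENO1, and of GPI and PKM overlapped per kilobase, so these neighbours did not differ beyond their spread, while the other neighbours did not overlap.

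For the 10 enzymes together, CyCoNP PD against input asks whether their mRNAs came down with CyCoNP. A call needed an adjusted p under 0.05 and a log2 fold change beyond 1 in either direction. No enzyme was called, against 0.119% of tested genes called higher and 0.00796% called lower by edgeR. None had an unadjusted p under 0.05, which 3.08% of genes reached on the higher side. EdgeR with a block for the replicate number called 1.53% of genes higher and DESeq2 0.462%, and 0 of the enzymes in each. For LDHA DESeq2 gave no adjusted p, so it could not call that gene. The median log2 fold change of the enzymes was 0.81, with 9 of 10 above 0, while the median over all tested genes was -0.01 and over the 1493 genes of at least 100 average CPM 0.08. The single values stood between the percentiles 41.4 (GPI) and 93.4 (LDHA) of all tested genes. For 7 of the 10 enzymes both CyCoNP PD libraries were above both input libraries in CPM, as were 15.9% of tested genes. Among the 8 enzymes of at least 100 average CPM it was 6, against 23.7% of such genes.

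LacZ PD against input asks the same of the control probes, and shares the input libraries with the first comparison. No enzyme was called by edgeR, where 0.0% of genes were called higher and 0.0% lower. Only LDHA had an unadjusted p under 0.05, as did 0.74% of genes on the higher side. DESeq2 called 0.0478% of genes higher and edgeR with the block 0.127%, and 0 of the enzymes in each. For PGAM1 and LDHA DESeq2 gave no adjusted p here, so it could not call them. The median of the enzymes was 0.75, with 9 of 10 above 0, against -0.68 over all tested genes and -0.25 over the abundant ones. With library size alone the 3 medians were 1.31, -0.34 and 0.19. Without LacZ PD 2 the first was 0.22 and that of all genes -4.52. Both LacZ PD libraries were above both input libraries for 7 of the 10 enzymes, as for 10.6% of tested genes, and for 7 of the 8 abundant enzymes, against 27.6% of abundant genes.

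CyCoNP PD against LacZ PD asks whether the enzymes came down more with CyCoNP than with the control. The fitted values lay between -0.74 (LDHA) and 0.46 (PKM), with standard errors of 0.60 to 0.99. No enzyme was called by edgeR, where 0.0% of genes were called higher and 0.0% lower, and none had an unadjusted p under 0.05, which 4.74% of genes reached on the higher side. DESeq2 called 0.287% of genes higher and edgeR with the block 0.724%, and 0 of the enzymes in each. For LDHA DESeq2 again gave no adjusted p and could make no call. LINC02381, the RNA that the probes target, was not called by edgeR without the block either (adjusted p = 0.0785). The lack of calls in that fit therefore says little about the enzymes. The median was 0.11, against 0.64 over all tested genes and 0.30 over the abundant ones, and with library size alone it was -0.46, against 0.22 over all genes and -0.22 over the abundant ones. Without LacZ PD 2 the medians were 0.55 for the enzymes and 4.58 over all genes. The direction for the group is thus set by the scaling, while in both scalings the enzymes lay below the median of all genes. In CPM, 29.3% of genes had both CyCoNP PD libraries above both LacZ PD libraries, and 0 of the 10 enzymes did. Among genes of at least 100 average CPM the share was 12.6%, against 0 of the 8 enzymes. TPI1, GAPDH, PGK1 and LDHB were lower in both, that is 4 of 10 against 9.57% of tested genes, and 4 of the 8 abundant enzymes against 23.5% of abundant genes. No interval lay within a log2 fold change of 1 to either side, so differences of that size remain possible for each enzyme.

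**Figure D2:**
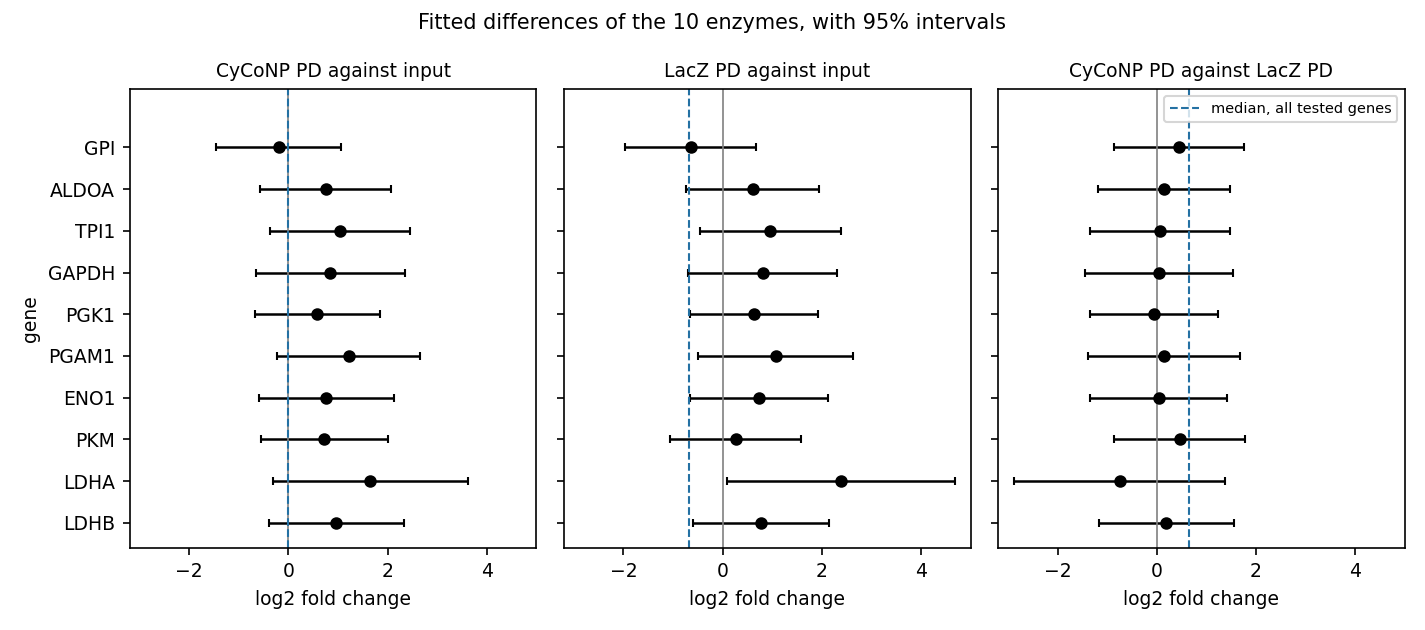
Fitted log2 fold change of each enzyme in the 3 comparisons (points) with 95% intervals (bars) from the edgeR fit over 6 libraries; the dashed line is the median of all 12565 tested genes. Against input, 9 of 10 points lie above 0 in both pull-downs, and between the pull-downs every interval includes 0.

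As a share of all counts, the 10 enzymes held 0.569% and 0.674% of the input libraries, 1.09% and 0.954% of CyCoNP PD, and 1.62% and 1.27% of LacZ PD. The 95% Wilson interval was widest for LacZ PD 1, at 1.45% to 1.81%. The groups did not overlap in this sum, with input lowest and LacZ PD highest. Of the single enzymes, TPI1, GAPDH, PGK1 and LDHB had this order in CPM without overlap. After TMM normalization the CyCoNP PD and LacZ PD libraries overlapped for each of these enzymes. The share of all tested genes with this order of the 3 groups in CPM was not counted. It cannot exceed the 9.57% with CyCoNP PD below LacZ PD, or 23.5% among genes of at least 100 average CPM. GAPDH held 35.6% to 49.1% of the enzyme counts. Without GAPDH the shares were 0.367% and 0.345% in input, 0.585% and 0.537% for CyCoNP PD, and 0.885% and 0.649% for LacZ PD, in the same order. A share depends on what else a library holds, so it does not give the amount of an mRNA recovered.

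**Figure D3:**
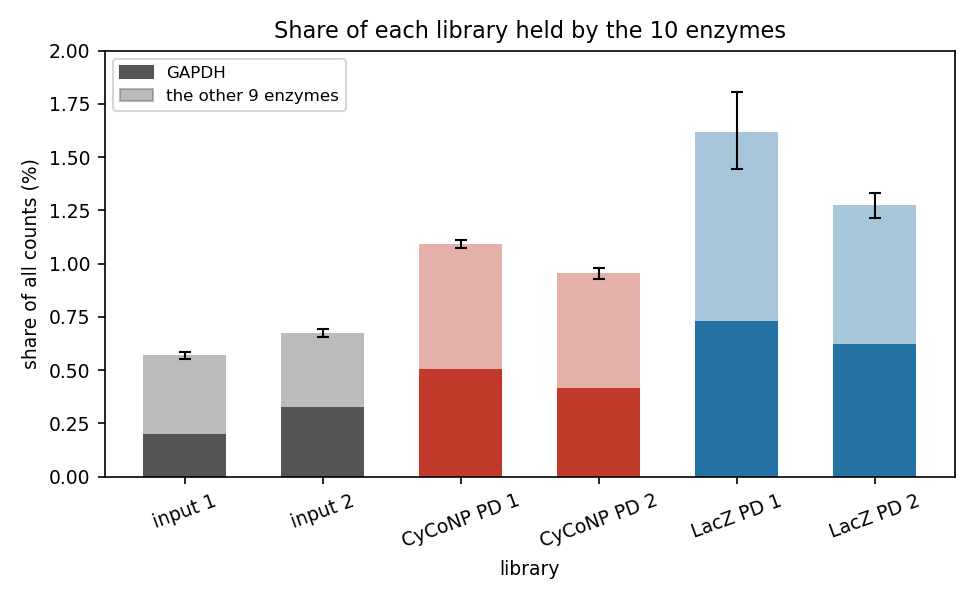
Share of all counts (percent) held by the 10 enzymes in each library, with GAPDH in full colour, the other 9 in pale colour and the 95% Wilson interval of the sum as bars. The share goes from 0.569% and 0.674% in the input libraries to 1.62% and 1.27% in the LacZ PD libraries.

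Pseudogenes bear on these counts, since processed copies of an mRNA can take its reads and the counts of near-identical copies are uncertain. The annotation names 104 pseudogenes of the enzymes, 65 of them of GAPDH, and 10 held at least 10 counts. The largest, GAPDHP1 at chrX:39787132-39788136, took 169 and 75 counts for input, 1014 and 46 for CyCoNP PD, and 14 and 5 for LacZ PD. TPI1P1 took 69 and 15, 274 and 1, and 3 and 0 counts, and PKMP4 took 35 and 0, 153 and 1, and 3 and 1. These counts lay mostly in the libraries numbered 1 of all 3 groups. Pseudogenes held 7.39%, 8.77% and 8.41% of the enzyme and pseudogene counts in input 1, CyCoNP PD 1 and LacZ PD 1, but 1.71%, 1.01% and 0.391% in the libraries numbered 2. For GAPDH alone, the shares were 11.7%, 12.3% and 12.7% in the libraries numbered 1 and 2.87%, 2.14% and 0.680% in those numbered 2. For LDHA, its pseudogenes LDHAP4 and LDHAP5 and others held 11 counts in input 1 and 46 in CyCoNP PD 1, beside 7 and 43 of LDHA itself. The mesenchymal marker sums given above, though not every marker, moved with the same libraries, and their part in the result was not tested. Adding the pseudogene counts to each enzyme left 0 calls, with a median log2 fold change of 0.82 in CyCoNP PD, 0.76 in LacZ PD and 0.15 between the pull-downs. The pseudogenes ALDOAP1, ALDOAP2, GAPDHP44, GAPDHP63 and GAPDHP65 held 11 to 33 counts in all.

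**Figure D4:**
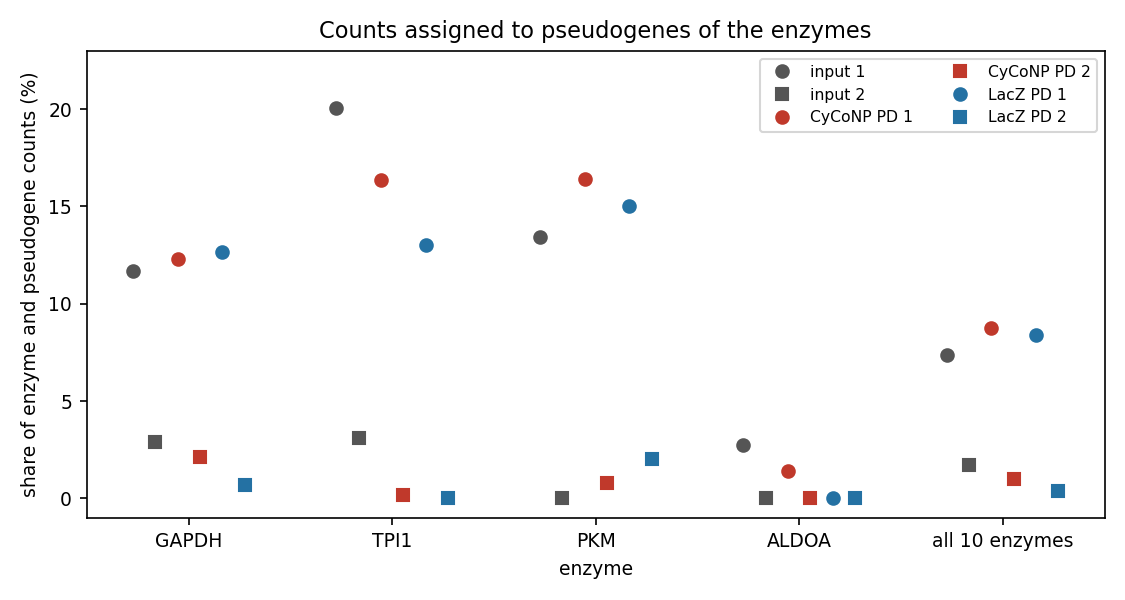
Counts assigned to annotated pseudogenes as a percentage of enzyme plus pseudogene counts, for GAPDH, TPI1, PKM, ALDOA and all 10 enzymes, in each library. The libraries numbered 1 (circles) lie at 7.39% to 8.77% for all 10 enzymes and those numbered 2 (squares) at 0.391% to 1.71%, whatever the group.

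A panel of RNAs was also read by RT-qPCR after the pull-down. Apart from LINC02381, which the probes target, it was chosen by the study from these pull-downs, so its direction in these libraries is not independent evidence. The study read the chosen RNAs by RT-qPCR in further pull-down replicates, which are not analysed here. Counts were set against GAPDH within a library, a ratio that no scaling factor changes. All 7 RNAs of the panel had higher ratios in both CyCoNP PD libraries than in the other 4. The share of all tested genes with such ratios was not counted, so how unusual this is cannot be said. LINC02381, the transcript of CyCoNP, had 1.38 and 1.50 counts per 100 GAPDH counts in input, 152 and 163 for CyCoNP PD, and 0.725 and 2.28 for LacZ PD. PSMC4, a subunit of the proteasome, had 3.30 and 1.54, 34.1 and 33.2, and 2.17 and 0.913. NCAM1, a cell adhesion molecule, had 10.1 and 4.69, 25.3 and 22.2, and 2.17 and 0.114. The smallest gap was that of CENPF, a kinetochore protein, with 7.09 and 4.49 in input, 7.79 and 35.3 for CyCoNP PD, and 2.17 and 3.88 for LacZ PD. Of the 7 RNAs, edgeR called 2 higher against input, and edgeR with the block and DESeq2 called 7 each. LINC02381 rose by a log2 fold change of 7.59 (SE 0.96, edgeR adjusted p = 0.0137) against input and PSMC4 by 4.81 (SE 0.71, adjusted p = 0.0236). NCAM1, at 2.71 (SE 0.76), missed the threshold in that fit (adjusted p = 0.318) and passed it with the replicate block (adjusted p = 0.000614). Against LacZ PD, edgeR called 0 of the 7 RNAs, edgeR with the block 7 and DESeq2 6. LINC02381 itself was at 6.39 there (SE 0.93, edgeR adjusted p = 0.0785).

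The other reference genes gave no calls either. Of 11 genes used as references, 0 were called in any of the 3 comparisons, by edgeR with or without the block or by DESeq2, and 0 had an unadjusted edgeR p under 0.05. Their median log2 fold change was 0.29 in CyCoNP PD and 0.37 in LacZ PD, and the highest was RPLP0, a ribosomal protein, at 0.55 and 0.81. ACTB, cytoskeletal actin, had 69.0 and 21.3 counts per 100 GAPDH counts in input, 31.7 and 18.4 for CyCoNP PD, and 37.7 and 21.6 for LacZ PD, so the libraries numbered 1 were the higher in each group. B2M, the light chain of MHC class I, ranged from 15.8 to 26.8 per 100 GAPDH counts over the 6 libraries.

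**Figure D5:**
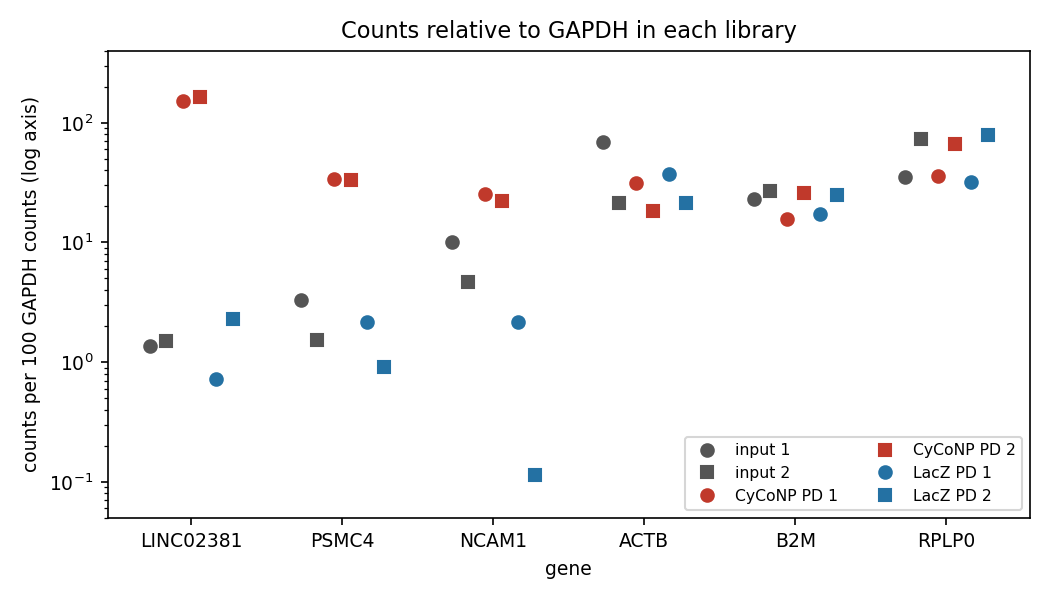
Counts of 3 RNAs of the study's pull-down panel (LINC02381, PSMC4, NCAM1) and 3 reference genes (ACTB, B2M, RPLP0) per 100 GAPDH counts (log axis) in each library. The CyCoNP PD libraries (red) lie at 152 and 163 for LINC02381, above the other 4, and overlap both other groups for each of the 3 reference genes.

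Some mRNAs followed GAPDH closely. By Euclidean distance of centred log2 CPM over the 6 libraries, the 5 nearest of 1492 genes of at least 100 average CPM were M6PR (0.23), EMC4 (0.25), EMC7 (0.27), EIF1B (0.34) and SKP1 (0.39). They encode a mannose-6-phosphate receptor, 2 subunits of the ER membrane complex, a translation initiation factor and a subunit of SCF ubiquitin ligases. Among the enzymes, TPI1 stood at place 40 (0.63), LDHB at 45 (0.65), PGK1 at 100 (0.77) and ALDOA at 117 (0.81). PKM (place 286), ENO1 (447) and GPI (732) were further away, and PGAM1 and LDHA were under the minimum. With 6 points that share their library depths, these distances describe the libraries and carry no test.

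The further genes of the pathway gave no calls. Of 23 isoenzymes, such as the hexokinases, phosphofructokinases and tissue forms of enolase, 12 were tested and 0 were called in any comparison by edgeR, by edgeR with the block or by DESeq2, with 0 at an unadjusted edgeR p under 0.05. Their median log2 fold change was 0.03 in CyCoNP PD and 0.14 in LacZ PD against input. The highest was BPGM, which makes 2,3-bisphosphoglycerate, at 1.57 and 2.63 with 3 and 2 counts in input. HK2, a hexokinase, was lowest in both, at -0.55 in CyCoNP PD, and had 0 counts in both LacZ PD libraries. Its input level, 18.1 and 7.58 CPM, is under the 21.4 CPM that 3 counts take in LacZ PD 2.

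Of 24 genes of fuel transport, glycolytic control and pyruvate entry, 17 were tested and 0 were called by the same fits. Their median was 0.03 in CyCoNP PD and -0.74 in LacZ PD, beside -0.01 and -0.68 over all tested genes. HIF1A, the oxygen-regulated activator of many glycolysis genes, was lowest in CyCoNP PD, at -1.48 (SE 0.63, edgeR unadjusted p = 0.0326, adjusted p = 0.829). The genes at an unadjusted p under 0.05 were 2 in CyCoNP PD and 1 in LacZ PD. SLC16A1, a lactate transporter named after its values were seen, was in both, at -1.38 (SE 0.61) and -2.09 (SE 0.71). It had 265 and 217 CPM in input, 89.9 and 85.5 CPM for CyCoNP PD, and 53.0 and 78.5 CPM for LacZ PD, without overlap between input and either pull-down (edgeR adjusted p = 0.869 and 0.607). As many as 20.3% of tested genes were likewise below input in both CyCoNP PD libraries and 33.7% in both LacZ PD libraries. PDK3, a kinase that restrains pyruvate dehydrogenase, was highest in CyCoNP PD, at 1.39 with 5 and 8 counts. FBP1, fructose-1,6-bisphosphatase, was highest in LacZ PD, at 2.11 with 0 and 4 counts. PDK1, another kinase of pyruvate dehydrogenase, and PFKFB3, which makes an activator of phosphofructokinase, had 0 counts in both LacZ PD libraries.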

How the data were processed

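Nanopore PCR-cDNA reads of 6 libraries of SK-N-BE cells were basecalled with Guppy by the authors, filtered on quality and length, aligned to GRCh38 with minimap2 2.24-r1122 and assigned to Ensembl genes with Bambu. The authors deposited whole-number counts per gene, without normalization, and the same values as CPM, which served only as a check (largest difference 5.1e-11). Strand use in counting is not given in the sources used here. The 12565 genes whose counts summed to 10 or more were tested in edgeR 4.0.16 (R 4.3.3) with TMM factors and the quasi-likelihood F test, fitted over the 6 libraries together, and adjusted by Benjamini-Hochberg. Standard errors were derived from the F statistic. On counts simulated for CyCoNP PD against input (12053 genes), edgeR recovered 200 of 200 genes raised 16-fold with 6 false calls. The simulation gave every gene the same spread beyond counting error and no effect of the replicate number. Smaller changes were not simulated. In the measured libraries, the edgeR fit of this comparison did not call SAMD4B at a log2 fold change of 3.98 (adjusted p = 0.0893). It did not call UBE2V2 at 3.86 either (adjusted p = 0.0624), but called PSMC4 at 4.81 and LINC02381 at 7.59. Whether full recovery holds at the spread of the measured libraries was not tested. Symbols, positions and transcripts came from GENCODE v44 (same build, later annotation, 12528 of the tested genes). Probes and primers came from the study's oligonucleotide list. Figures were drawn with matplotlib 3.10.9.

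Libraries of one group differed by more than counting error (chi-square of 2.55 to 9.97 per degree of freedom over genes), so none was counted as a copy of another. This does not show that they are separate samples. Deviations from the group means of same-numbered libraries correlated at 0.257 to 0.449, with only 3 distinct values since 2 libraries per group mirror each other, so equal numbers may pair the libraries. The paper names no block, so the reported fit has none, and the block is an alternative. Depth, 18870 to 1512148 counts, and 2 libraries per group limit the precision. The genes named are the 10 enzymes, the 5 nearest to GAPDH, pseudogenes of at least 10 counts, and from each fixed list the called, the highest and the lowest genes, or any gene where the list has under 12; the lowest of the reference genes are not reported here. Members and lists were chosen with earlier results of these data known.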

Additional observations from a re-analysis of the deposited data

How the results depend on the processing

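Tried were DESeq2 1.42.0 and its size factors within edgeR, scaling by library size, fits with no filter, with filterByExpr, on 2 groups, with the replicate block or with pseudogene counts added, and leaving out each library. In all 16 fits 0 of the 10 enzymes were called in each comparison, and the smallest adjusted p was 0.214, 0.199 and 0.795 in CyCoNP PD against input, LacZ PD against input and CyCoNP PD against LacZ PD. DESeq2 without the block gave no adjusted p for LDHA in any comparison or for PGAM1 in LacZ PD against input. Genes without an adjusted p from DESeq2 count as not called in every count and share given for it. Over the 16 fits the GAPDH log2 fold change ran from 0.47 to 1.35, from 0.28 to 1.35 and from -0.55 to 0.58. With the pairing of numbers as a replicate block in edgeR, GAPDH was at 0.92, 0.83 and 0.09, and the block changed no call of an enzyme. Across all genes, the block and DESeq2 raised the calls in CyCoNP PD from 15 higher to 192 and 58. Library size alone moved the median of the enzymes to 1.31 in LacZ PD against input and -0.46 between the pull-downs, and turned GAPDH to -0.55 and ENO1 to -0.67 there. Between the pull-downs the median was -0.062 with the size factors of DESeq2, -0.067 with DESeq2 itself, 0.20 with no filter, 0.0052 with filterByExpr, 0.14 with the block in edgeR, -0.019 with it in DESeq2 and 0.15 with pseudogene counts added. Over the 16 fits, the median of the enzymes minus that of all genes ran from 0.63 to 1.03 in CyCoNP PD against input, from 1.02 to 4.74 in LacZ PD against input and from -4.02 to -0.19 between the pull-downs. The extremes of 4.74 and -4.02 came without LacZ PD 2, when the all-gene medians were -4.52 and 4.58. With DESeq2 these were -0.35 and 0.23, and with its block -0.27 and 0.17. Leaving out 1 library, the medians of the enzymes ran from 0.61 to 1.01, from 0.22 to 0.88 and from -0.11 to 0.55. Without LacZ PD 2, the values in LacZ PD turned to -0.061 for TPI1, -0.97 for PGAM1 and -5.23 for LDHA, and LDHA between the pull-downs to 6.88, with 20, 1 and 0 counts left in the lone LacZ PD library, which is assumed to vary like the other groups. With other libraries left out these 4 values reached 1.42, 1.56, 3.04 and -1.81. Ratios of CPM within a number, chosen after seeing the data, gave medians of 0.87 and 0.64 in CyCoNP PD against input, 1.45 and 1.05 in LacZ PD against input, and -0.63 and -0.58 between the pull-downs. The cause of these shifts was not tested.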
